A study of Mus musculus with 12 samples.

Results

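The repressor screen asked which proteins, once brought next to an active promoter, are followed by loss of its output. It comprised 4 of the 12 libraries analysed in the series, 2 from sorted GFP-negative cells and 2 from the unsorted cells of the same screen, and every library of the screen was used. All were diploid mouse embryonic stem cells (mESCs) derived from the once-haploid AN3-12 line, wild type apart from a reporter, and all descended from 1 clonal line, so both groups share that line's background. The reporter, pEF1-BFP-7xTetO-pPGK-Puro-IRES-GFP, sat in an expression-stable locus on chromosome 15, with TetO operators in front of a constitutive PGK promoter that drives puromycin resistance and GFP. Both groups carried the ORFtag cassette, a retrovirus with its own PGK promoter, a NeoR gene, a TetR tag with a nuclear localization signal and a splice donor, and both had been through G418 selection. The 2 groups differed in the sort alone, and each was prepared as 2 replicates. Of the 20409 genes in the table, 7688 held at least 10 insertions over the 4 libraries and were tested. The libraries hold insertion sites in genomic DNA and no transcripts, so the labelled cell type could not be checked against marker expression.

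In ORFtag a cassette that lands upstream of an exon, or in the intron before it, splices its tag onto that exon and produces a fusion protein from the endogenous locus. TetR then holds the fusion at the TetO sites. KRAB zinc-finger proteins, the largest family of mammalian DNA-binding repressors, recruit Trim28 (KAP1), which brings the H3K9 methyltransferase Setdb1, HP1 proteins and histone deacetylases to chromatin, and embryonic stem cells use this pathway to silence endogenous retroviruses and to protect imprinted loci. Polycomb complexes, the CoREST complex with the demethylase Kdm1a (LSD1), NuRD, NCoR and Sin3 are other routes by which a recruited protein can lower transcription.

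The splice acceptors that received most of the sorted insertions are shown for the genes on which the first results turn, since these are the exons to which their insertions were assigned. The Zfp57 exon lies in a leader that, by the annotation, cannot be read through into the protein, as described with the exon comparison, so it need not be where a Zfp57 fusion begins. Each window holds 20 bases of intron in lower case and the first 10 bases of the assigned exon in capitals, read on the strand of the gene from GRCm38 (mm10). All of them end their intron with the ag that defines an acceptor, as did 7751 of the 7788 matched exons with at least 10 insertions.
Zfp57 exon 2, chr17:37002432-37002461, plus strand: aatggaatttcctagcgcagCTGAGACCAG
Sp3 exon 2, chr2:72979623-72979652, minus strand: cccccgcgctgtgcctgcagCTCCCGAAAA
Ipo7 exon 2, chr7:110027051-110027080, plus strand: tctttgtttatttgttttagGCACACAAGT
Morc1 exon 21, chr16:48612269-48612298, plus strand: atgtagaacttgtttttcagGTTTGGGATC
Rcor2 exon 2, chr19:7269745-7269774, plus strand: tgcctcccctggctccacagACAGCATGAT
Trim28 exon 2, chr7:13025284-13025313, plus strand: tcccatttttatcttggcagTGGTGGATTG

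The depth of the 2 groups was unequal. The sorted libraries held 22266 and 15204 unique insertions within 200 kb of an assigned exon and the unsorted libraries held 174276 and 176944. A gene with no insertion may therefore hold up to 1.35 or 1.97 insertions per 10000 in sorted replicates 1 and 2, against 0.172 or 0.170 in the unsorted replicates, and these limits cover counting error only. The 2 sorted libraries also shared positions: 18.2% of the positions in sorted replicate 1 and 26.0% of those in replicate 2 stood at the same base and strand in the other, whereas the unsorted pair shared 3.98% and 3.88%. Sorted replicate 1 shared 8.17% and 9.86% of its positions with unsorted replicates 1 and 2, and sorted replicate 2 shared 5.03% and 8.23%. With the unsorted activator libraries 1 and 2 they shared 1.31% and 1.57%, and 1.24% and 1.60%. Whether cells or preparations were shared was not tested. Leading counts are given also after leaving positions common to the sorted pair out of both sorted libraries. Other positions shared with unsorted libraries were kept.

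Sorting concentrated the insertions at a small set of genes. The quasi-likelihood test of edgeR called 195 genes higher in the sorted cells at a Benjamini-Hochberg adjusted p under 0.05, which is 2.54% of the genes tested. Without the positions shared by the 2 sorted libraries 183 were called (2.39%), of which 182 were among the first set. TMMwsp scaling gave 168 (2.19%) and a fit with the replicate number as a block 173 (2.25%), all among the 195. The 195 genes held 55.0% of all insertions in sorted replicate 1 (95% Wilson interval 54.4 to 55.7%) and 54.7% in replicate 2 (53.9 to 55.5%), against 3.93% (3.84 to 4.03%) and 3.44% (3.36 to 3.53%) in the unsorted replicates, a description since these genes were called on the same counts. Their fitted log2 difference had a median of 3.78 and ran from 1.34 to 6.16 over the 194 with an unsorted insertion, whereas the median over all genes tested was -1.30. In 192 of them both sorted shares stood above both unsorted shares. This too is a description of genes called on these counts, and it was not counted over all genes tested. As library size was the total number of insertions, a gain at some genes lowers the share of every other gene, and TMMwsp scaling moved the median of all genes up by 0.29 on the log2 scale.

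**Figure D1:**
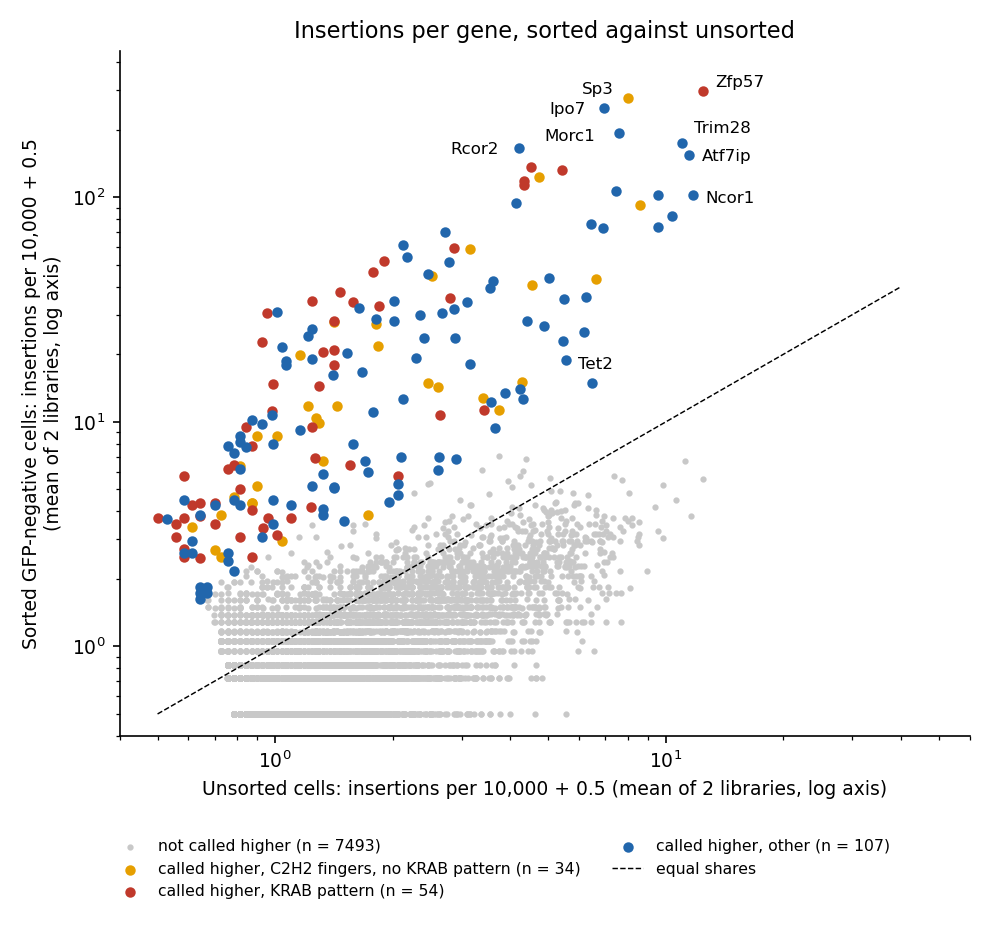
Each point is 1 of the 7688 genes tested, with its insertions per 10000 (plus 0.5, log axes) in unsorted cells on the x axis and in sorted GFP-negative cells on the y axis, as the mean of 2 libraries each. Coloured points are the 195 genes called higher, split by protein class, and they lie above the dashed line of equal shares, with Zfp57, Sp3 and Ipo7 at the top.

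Zfp57, the KRAB zinc-finger protein that keeps imprinted loci methylated, held the most sorted insertions. It had 564 and 520 in sorted replicates 1 and 2 and 220 and 200 in unsorted replicates 1 and 2. Per 10000 insertions this was 298 ± 62.7 (SD, n = 2) against 11.96 ± 0.934, with no overlap between the groups. The log2 difference was 4.63 ± 0.32 (SE) with an edgeR adjusted p of 2.3e-44.

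Sp3, a GC-box binding factor with both activating and repressing forms, followed with 598 and 435 sorted insertions and 133 and 130 unsorted ones. Its sorted share was 277 ± 12.4 per 10000 (SD, n = 2) and its unsorted share 7.49 ± 0.201, a log2 difference of 5.21 ± 0.33 (SE). Ipo7, a nuclear import receptor, had 476 and 433 sorted insertions against 117 and 109, a log2 difference of 5.27 ± 0.32. Morc1, a GHKL ATPase that silences transposons in the male germline, had 469 and 268 against 116 and 133, a log2 difference of 4.77 ± 0.29. Rcor2, a CoREST scaffold subunit expressed in embryonic stem cells, had 347 and 267 against 71 and 59, a log2 difference of 5.48 ± 0.29. In each of these 4 genes both sorted libraries stood far above both unsorted ones, and the edgeR adjusted p was 2.5e-54 for Sp3, 1.5e-58 for Ipo7, 5e-57 for Morc1 and 4.5e-75 for Rcor2.

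Most insertions of each of these genes were assigned to 1 exon. Exon 2 took 100% of the sorted insertions of Rcor2, and 92% of its coding sequence lies downstream of that acceptor in GENCODE vM21. Exon 2 of Sp3 also took nearly all, 598 and 433 of the sorted insertions. Morc1 was spread more widely, with 84.3% of its sorted insertions (395 and 226) at exon 21, which leaves 26% of the coding sequence, and smaller numbers at exons 19, 22, 2 and 16. The unsorted cells used the same Morc1 exon for 90 and 93 insertions.

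The other genes among the 20 with the largest sorted share and no call for reversed insertions, described below, were Atf7ip, Zfp872, Zfp825, Sp1, Gm35315, Zfp870, Jdp2, Rnf220, Ncor1, Arid1a, Klf8, Zmynd8, Rbpj, Smarcad1 and Kdm2b. Atf7ip, the partner that stabilizes Setdb1 in the nucleus, had 284 and 276 sorted and 209 and 176 unsorted insertions. Jdp2, a bZIP repressor of AP-1 target genes, had 308 and 114 against 125 and 120. Arid1a, a DNA-binding subunit of BAF remodelling complexes, had 209 and 142 against 71 and 57. Rbpj, the DNA-binding factor of the Notch pathway, had 212 and 86 against 117 and 91, so sorted replicate 2 held fewer Rbpj insertions than either unsorted library although its share per 10000 was higher. As shares the groups did not overlap at any of the 20 genes, which were picked for a call and a large sorted share.

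**Figure D2:**
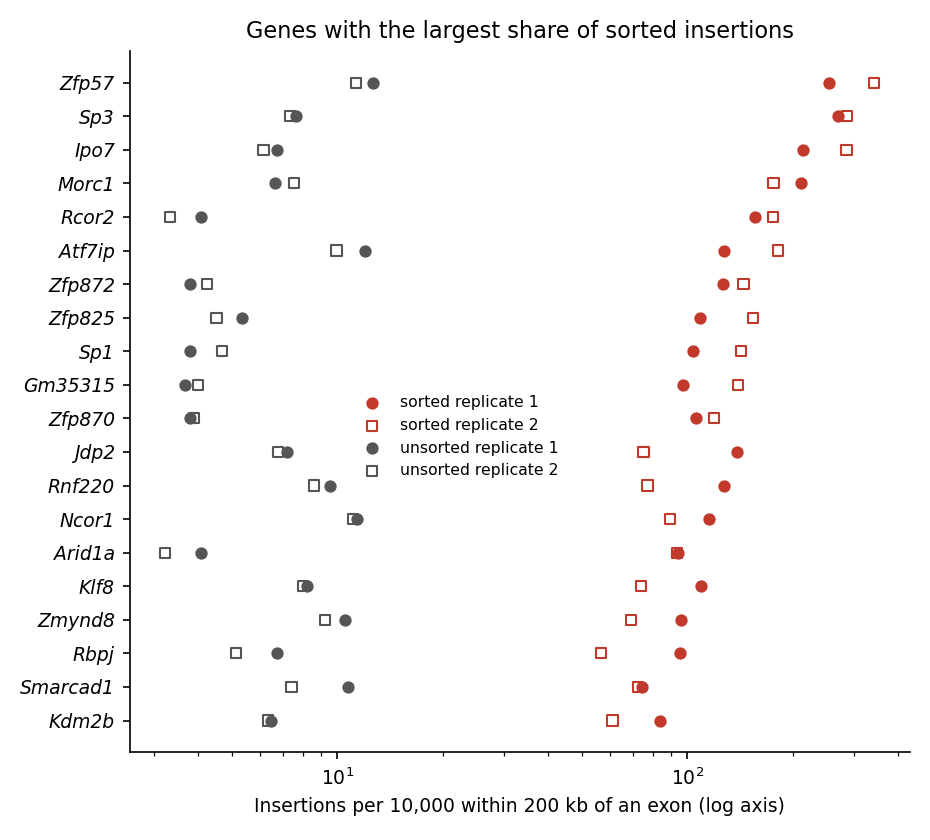
Insertions per 10000 (log axis) in each of the 4 libraries for the 20 genes with the largest mean sorted share that were not also called for reversed insertions, with filled circles for replicate 1 and open squares for replicate 2, red for sorted and grey for unsorted cells. Every red symbol lies to the right of every grey symbol of its gene.

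KRAB zinc-finger genes made up the largest named class. A KRAB A-box pattern was searched in every GENCODE vM21 protein of each gene, and 258 of the 20409 genes held it. Of the 113 that were tested, 54 were called higher and 1 lower, or 47.8% higher against 2.54% of all genes tested, and their median log2 difference was 1.83. Without the shared positions 47 of them were called. The filter of 10 insertions was summed over all 4 libraries. A gene with few unsorted insertions was therefore tested only if its sorted count was high, as with 2610044O15Rik8 (7 and 5 sorted, 0 and 0 unsorted). This can raise the share called higher and the median, here and in the other classes and lists. Genes with at least 2 C2H2 fingers and no KRAB match were called higher in 34 of 214 cases (15.9%), with 12 called lower and a median of -0.73. Of all genes tested 4.21% were called lower, and with TMMwsp scaling 0 of this class were. All remaining genes were called higher in 107 of 7361 cases (1.45%). The pattern is strict, so some members of the second class may hold a diverged KRAB box.

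The KRAB genes ranged widely in depth. Zfp872 had 281 and 220 sorted insertions against 66 and 75, a log2 difference of 5.07 ± 0.27 (SE). Zfp825 had 242 and 234 against 93 and 80. Their shares in both sorted libraries stood well above the unsorted ones. Zfp809, which silences murine leukaemia virus and related retroviruses in embryonic cells, had 46 and 53 sorted insertions against 21 and 11, a log2 difference of 4.84 ± 0.30 and an edgeR adjusted p of 1.3e-56. Its 2 sorted libraries again stood above the unsorted ones, even in raw counts.

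Among the 54 KRAB genes called higher, 18 carry only a clone or model name such as Gm35315. Gm35315 had 216 and 212 sorted insertions against 64 and 71, a log2 difference of 4.92 ± 0.26. Gm10778 had 111 and 81 against 28 and 21, and Gm14325 had 106 and 68 against 23 and 22. Of the KRAB genes called higher, 3 (Gm10130, B230307C23Rik and 3300002I08Rik) held no finger pattern in any translated transcript. The share called higher was 4 of 5 in KRAB genes with 1 to 4 fingers, 14 of 24 with 5 to 9, 24 of 50 with 10 to 14 and 9 of 26 with 15 or more. These bins differ in size and in how many genes were deep enough to test, and no test was made between them.

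**Figure D3:**
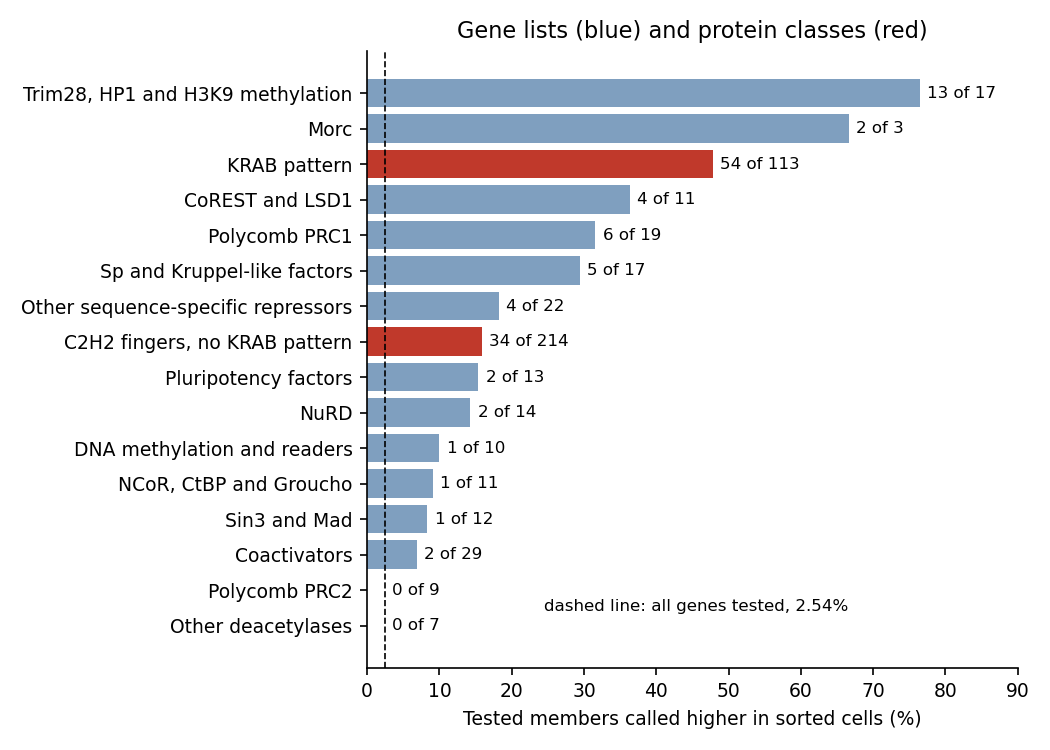
Share of the tested members of each gene list (blue) or protein class (red) called higher in sorted cells, with the counts beside each bar. The dashed line is the 2.54% of all genes tested, and the list of Trim28, HP1 and H3K9 methylation stands highest with 13 of 17. The lists were chosen with earlier results of these data known.

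Of the other families defined by symbol, Zbtb genes were called higher in 2 of 21 cases, Zbtb45 and Zbtb3, and Trim genes in 3 of 22, Trim28, Trim24 and Trim8. None of the 10 tested Zscan, Zkscan and Scand genes was called in either direction by edgeR or DESeq2, with 0 higher and 3 lower at an unadjusted p under 0.05. None of the 44 ribosomal protein genes (Rpl and Rps) was called higher by edgeR or DESeq2, and 0 were higher at an unadjusted p under 0.05. Of 60 tested olfactory and vomeronasal receptor genes 1 was called higher, Olfr130, with 151 and 109 sorted insertions against 40 and 38. Over all genes tested 2.54% were called higher. The counts in the Zscan, ribosomal and receptor families are near that share and are no result about these families.

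Of the 25 genes listed for Trim28, HP1 and H3K9 methylation 17 were tested, and 13 were called higher with none lower. This list and those below were chosen with earlier results of these data known, so their counts and medians are descriptions. Over all genes tested the share called higher was 2.54%. The list's median log2 difference was 3.78, against -1.30 over all genes tested. All 13 were called also without the shared positions, with TMMwsp scaling and with the replicate block.

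Trim28, the corepressor itself, had 331 and 302 sorted insertions and 199 and 169 unsorted ones. Per 10000 this was 174 ± 35.3 (SD, n = 2) against 10.5 ± 1.32, a log2 difference of 4.04 ± 0.27 (SE) with an edgeR adjusted p of 1.3e-46. The HP1 genes followed: Cbx1 had 52 and 60 sorted against 47 and 36 unsorted insertions, Cbx3 had 34 and 49 against 11 and 14, and Cbx5 had 65 and 47 against 46 and 30. Their log2 differences were 3.66, 4.94 and 3.78. All 3 HP1 paralogues therefore stood higher in both sorted libraries, and Cbx3 by the widest margin.

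Of the H3K9 methyltransferases tested, 3 were called and 1 was not. Setdb1 had 19 and 18 sorted insertions against 9 and 8, Ehmt2 (G9a) had 41 and 36 against 12 and 7, and Ehmt1 (GLP) had 8 and 6 against 6 and 1, with log2 differences of 4.32, 5.22 and 4.14. Setdb2 had 0 and 0 against 4 and 7 and was not called. Tasor and Mphosph8, subunits of the HUSH complex that silences young transposons, were called with 9 and 17 against 6 and 5 and with 11 and 4 against 7 and 4. The remodeller Smarcad1 (165 and 110 against 187 and 131) and the chromodomain proteins Cdyl (54 and 49 against 27 and 19) and Cdyl2 (38 and 11 against 34 and 23) were called as well. The tested members that did not pass were Setdb2, Atf7ip2, Uhrf1 and Chaf1a, of which Uhrf1 was the most abundant with 2 and 1 against 26 and 21.

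Polycomb members of PRC1, the complex that ubiquitylates H2A, were called higher in 6 of 19 cases with none lower, and the list's median was -0.06. Kdm2b, which brings a variant PRC1 to CpG islands, had 186 and 93 sorted insertions against 113 and 112 (log2 difference 3.52). Rybp had 82 and 52 against 110 and 92, Phc1 had 61 and 61 against 45 and 46, and Cbx7 had 70 and 36 against 35 and 18. Pcgf6 and Bcor were the others. Rnf2, the catalytic subunit, had 2 and 0 against 35 and 41, and Fbrsl1, an abundant member, had 6 and 1 against 87 and 96. Of the 9 tested PRC2 genes, whose complex methylates H3K27, none was called higher by edgeR or DESeq2, with 0 higher at an unadjusted p under 0.05, and 1 was called lower by edgeR, Mtf2 with 0 and 2 against 73 and 76. That call on Mtf2 was lost with TMMwsp scaling (adjusted p 0.14).

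The CoREST and LSD1 list had 4 of 11 tested genes called higher, Rcor2, Gse1, Phf21a and Kdm1a, and 1 lower. Kdm1a, the demethylase, had 20 and 9 sorted insertions against 12 and 5, and Gse1 had 74 and 18 against 87 and 87, so Gse1 stood higher in share and mostly in replicate 1, without which its call was lost. The member called lower was Zmym3, with 5 and 1 against 94 and 101, and it too lost its call with TMMwsp (adjusted p 0.27). The deacetylases Hdac1 and Hdac2, shared with NuRD, had 1 and 0 against 18 and 22 and 3 and 1 against 42 and 37.

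Of the 14 tested NuRD genes 2 were called, the helicases Chd4 (39 and 21 against 14 and 18) and Chd3 (35 and 29 against 6 and 14), while Mta3, the most abundant not to pass, had 4 and 5 against 104 and 98. In the list of NCoR, CtBP and Groucho 1 of 11 passed, Ncor1, with 256 and 136 against 198 and 196, and Tle4 did not with 6 and 6 against 78 and 80. In the Sin3 and Mad list 1 of 12 passed, Arid4b, with 11 and 4 against 15 and 6, a call lost without sorted replicate 1. The abundant Sinhcaf had 4 and 4 against 66 and 62. None of the 7 other tested deacetylase genes was called in either direction by edgeR or DESeq2, and 0 passed an unadjusted p under 0.05, Sirt5 being the most abundant with 1 and 1 against 28 and 31. Of 3 tested Morc genes 2 passed, Morc1 and Morc3 (62 and 28 against 34 and 33), and Morc2a did not, with 5 and 2 against 26 and 24.

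Among DNA-binding factors outside the KRAB class, Sp and Kruppel-like factors were called higher in 5 of 17 cases, Sp3, Sp1, Klf8, Sp2 and Klf3, and 2 were called lower. Sp1 had 231 and 216 against 66 and 83 and Sp2 had 60 and 42 against 19 and 13. Klf9, the most abundant that was not called higher, had 7 and 3 against 134 and 105 and was called lower at an adjusted p of 0.046 by edgeR, a call lost with TMMwsp (0.37). In the list of other sequence-specific repressors 4 of 22 passed: Rest, the repressor of neuronal genes, with 137 and 36 against 111 and 104; Etv6 with 79 and 50 against 29 and 24; Tgif1 with 68 and 43 against 36 and 29; and Ikzf4 with 9 and 4 against 3 and 5. Hes1 did not pass, with 4 and 1 against 46 and 60.

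The lists taken for contrast also held calls. Of 13 tested pluripotency factors Esrrb (81 and 50 against 98 and 77) and Tfcp2l1 (25 and 10 against 65 and 46) were called higher, and 1 was called lower. Tbx3 had 7 and 4 against 68 and 91. Of 29 tested coactivators 2 were called higher, among them Maml1 (15 and 12 against 3 and 6), and Bicral, the most abundant that did not pass, had 10 and 2 against 118 and 104. The call on Tfcp2l1 was lost without sorted replicate 1. Of 10 tested genes of DNA methylation and its readers Tet2 was called higher, with 45 and 25 against 97 and 80, and 2 were called lower, among them Tet1 with 3 and 1 against 103 and 91. The call on Tet1 was lost with TMMwsp (adjusted p 0.12).

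Further groups were added after the values of the tests reported here had been seen, and are given as counts only. Of 14 tested SUMO pathway genes 6 were called higher, among them Sumo2, Sumo3, Pml, Nsmce2 and Zfp451. Sumo2, a ubiquitin-like protein modifier, had 128 and 97 sorted insertions against 34 and 23. Of 17 tested BAF subunit genes 4 were called, Arid1a, Arid1b, Smarca4 and Smarca2. Of 4 tested retinoid receptor genes Rxra, Rarg and Rara were called, but none of them with TMMwsp scaling. The p53 family members Trp73 (25 and 5 against 4 and 8) and Trp63 (15 and 7 against 5 and 6) were called, while Trp53, with 2 and 0 against 51 and 48, was not (edgeR adjusted p 0.054).

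Genes singled out by the study were among those called. Trim8, an E3 ubiquitin ligase, had 16 and 8 sorted insertions against 27 and 15, a log2 difference of 2.41 ± 0.45 (SE). Msantd3, a protein with a Myb-like domain, had 58 and 14 against 50 and 43, a difference of 2.85 ± 0.28. Gm10324, a zinc-finger gene, had 7 and 7 against 8 and 5, a difference of 3.29 ± 0.68. In the reversed assignment Gm10324 had 4 and 3 against 8 and 9 and was not called (log2 difference 2.18, edgeR adjusted p 0.15). The study, by its own test, flagged Gm10324 for reversed integrations, as a hit to be treated with caution. Trim8 rested on sorted replicate 1, and its call was lost without it.

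The reversed assignment, in which each insertion is paired with the nearest exon on the opposite strand, served as the control, since a cassette cannot splice onto an exon of the other strand. In it 120 of 7623 genes were called higher (1.57%). Of the 195 genes called in the sense direction 137 were tested there and 10 were called both ways: Trim28, Zbtb45, Zfp472, Zfp85, Zfp74, 3300002I08Rik, Zfp568, Zfp493, Zfp799 and Gm10130. Zbtb45 had 321 and 294 reversed insertions in the sorted libraries, close to the 331 and 302 sense insertions of its opposite-strand neighbour Trim28. Over the 185 genes called in the sense direction alone, 97.9% and 98.0% of insertions assigned to them either way in the sorted replicates were in the sense direction, against 61.3% and 58.5% in the unsorted replicates. These genes were chosen for a sense gain and no reversed call, so the sorted shares are a description. At the 7493 genes not called higher the sense share was 36.5% and 35.6% in sorted and 50.3% in both unsorted replicates. The reversed assignment places every insertion again. Sense insertions gained at a called gene can thus count as reversed ones of a neighbour, as at Zbtb45. Whether this accounts for the lower sorted sense share at genes not called was not tested. As such double placing can occur, the 120 reversed calls are not read as a rate of false calls. Morc1 had 3 and 3 reversed insertions in sorted cells and 73 and 71 in unsorted cells.

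Of the 195 called genes, 60 (30.8%) had another called gene within 200 kb, 48 of them 1 on the same strand, against 572 of 7490 tested genes not called higher (7.64%). Zinc-finger genes lie in genomic clusters, and among KRAB genes the numbers were 34 of 54 called (63.0%) and 23 of 59 not called higher (39.0%). Chromosome 7 held 22 called genes, chromosome 13 held 21 and chromosome 17 held 19. On chromosome 17, Zfp870 (417 sorted insertions in both libraries together) stood within 200 kb of Zfp472, Zfp811, Zfp952, Zfp563 and Zfp799, which had 8 to 37. On chromosome 2, Gm11084, which had 4 and 7 sorted and 0 and 1 unsorted insertions, overlaps Sp3 on the same strand. Reads do not tell which of 2 same-strand genes a cassette fused to, so calls on low-count neighbours of a deep gene are uncertain.

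The position of the cassette differed too. The median distance to the assigned exon at called genes was 10636 and 10499 bp in sorted replicates 1 and 2 and 17641 and 17298 bp in unsorted replicates 1 and 2. At all other genes it was 30494 and 34694 bp in sorted and 32901 and 33044 bp in unsorted cells. These medians pool genes that weigh differently in sorted and unsorted cells. Within genes, over the 93 called genes with at least 10 insertions in every library, both sorted medians lay below both unsorted medians in 51, above them in 12 and overlapped with them in 30. The same count was not made over genes not called. It therefore does not show whether a shorter distance is particular to the called genes. The share that lay upstream of the annotated gene was 51.7% and 57.2% in sorted against 56.4% and 58.1% in unsorted cells.

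The exon onto which the tag splices decides how much of the protein follows it. Insertions per exon were therefore compared within genes, over the 697 genes with at least 2 exons of 10 or more insertions. By edgeR's exon-use test 29 genes (4.16%) differed between sorted and unsorted cells, and 25 of them were among the 54 genes called higher that could be tested for exon use. The 10 insertions were summed over the 4 libraries, so a gene not called higher could qualify with few sorted ones. A shift in exon use is harder to detect in such a gene, so the 25 of 29 is a description. Without sorted replicate 1, 10 genes passed. Without the positions shared by the sorted libraries 23 passed.

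Ncor1, the nuclear receptor corepressor, differed most, with an exon-use adjusted p of 1e-34. Unsorted cells held 137 and 122 insertions before an exon 2 that starts at chromosome 11 position 62438515, and sorted cells held 8 and 5. Before a second exon 2, starting at 62433699, sorted cells held 88 and 50 against 17 and 22. The first acceptor opens a leader in which an in-frame stop codon stands between the acceptor and the annotated start codon, so a tag spliced there cannot read into the protein unless that exon is skipped. The second lies in coding sequence, with 99% of it downstream. Such leaders are called closed below. In Tet2, a methylcytosine dioxygenase, the closed exon 2 held 5 and 3 sorted against 80 and 65 unsorted insertions, whereas exon 3, whose leader is open, held 40 and 22 against 15 and 15.

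The closed acceptors in these 2 genes and in Tox4 and Zmynd8 are set beside another acceptor of the gene that held more sorted insertions, since the windows show that each ends in ag. The Tox4 exon 4 and Zmynd8 exon 14 did not pass the test as single exons (adjusted p 0.24 and 0.14), and exon 15 was the most favoured of Zmynd8. Capitals again mark the first 10 bases of the exon.
Ncor1 closed exon 2, chr11:62438506-62438535, minus strand: tctttttctgttctatgtagGTTGCTTCCT
Ncor1 coding exon 2, chr11:62433690-62433719, minus strand: gacaattattttaataccagGAATTTGCAG
Tet2 closed exon 2, chr3:133514164-133514193, minus strand: gcaaactctgtcttctctagGCTGGTATAC
Tet2 open exon 3, chr3:133488708-133488737, minus strand: acttttttctgtgtctttagGATTCATTCA
Tox4 closed exon 2, chr14:52279368-52279397, plus strand: tctctattgctctcccccagAAATCTTCGC
Tox4 coding exon 4, chr14:52285640-52285669, plus strand: ttttccatttttccatacagACATTCCATA
Zmynd8 closed exon 2, chr2:165883389-165883418, minus strand: aaatttcctttttgatcaagTCCCAAATCT
Zmynd8 coding exon 14, chr2:165807920-165807949, minus strand: tccaccctgcctggctgtagCTATAGGTAA

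Closed leaders recurred among the 29 genes. A closed exon was present in 17 of them, and in 16 of the 17 every closed exon had a lower sorted-to-unsorted ratio than every other exon of its gene. This held in 83 of 162 genes (51.2%) with closed and other exons that were neither called higher nor past the exon-use threshold. Among genes called higher it held in 5 of 8 (62.5%) not past the threshold and in 18 of 22 (81.8%) in all. The 17 genes were chosen by the exon-use test, so these sets are not alike. No closed exon was the most favoured one in any of the 29 genes. In the 14 of these genes that were also called higher, closed leaders held 6.03% and 6.61% of insertions in sorted replicates 1 and 2 and 53.1% and 53.5% in the unsorted replicates. As the genes were chosen by the exon-use test, these shares are a description. Zmynd8, a bromodomain protein that reads acetylated histones, had 28 and 12 sorted insertions at its closed exon against 92 and 81. Tox4, an HMG-box protein, had 0 and 0 against 8 and 9. Phf21a, the CoREST subunit that reads unmethylated H3K4, had no sorted insertion at its closed exons, with 18 and 15 unsorted.

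**Figure D4:**
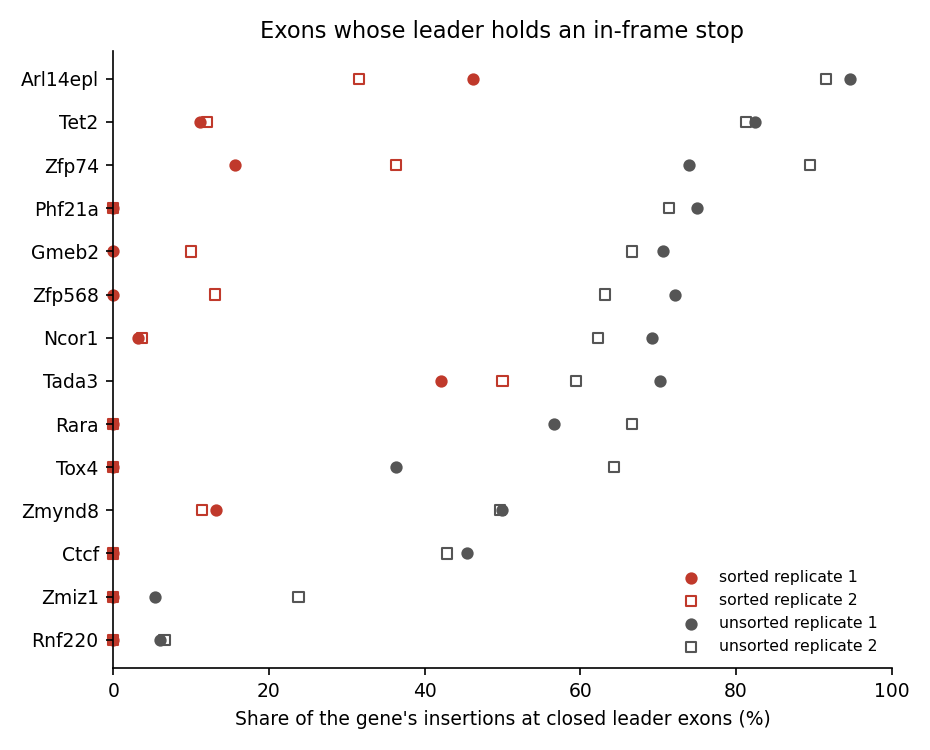
For the 14 genes called higher that passed the exon-use test and have a closed leader exon, the share of the gene's insertions in each library that was assigned to closed leaders (0 to 100%), with red for sorted and grey for unsorted cells, filled circles for replicate 1 and open squares for replicate 2. In all 14 both sorted values lie below both unsorted ones.

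A closed leader in the annotation did not by itself keep a gene from being called. Of the 134 called genes with at least 20 sorted insertions, 10 had over 90% of them at closed leaders, and these 10 had over 90% of their unsorted insertions there too. Zfp57 was one, with 1075 of 1084 sorted and 414 of 420 unsorted insertions at closed leaders, and Zfp825 had all 476 and all 173. The others were Olfr130, Sumo2, Cdk13, Zfp72, Kars, Rbpj, Zfx and Klf8. Whether later exons are reached there by skipping was not tested, since no transcripts of these cells were used here. Over all called genes, closed leaders held 16.0% and 17.5% of sorted and 20.7% and 20.3% of unsorted insertions, and at other genes they held 20.0% and 19.8% against 20.4% and 20.5%.

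Other genes differed in exon use without a closed leader. In Esrrb, an orphan nuclear receptor of the pluripotency network, exon 4 held 73 and 48 sorted insertions against 39 and 27, whereas exon 3 held 0 and 0 against 28 and 21 and exon 2, whose leader is open, held 3 and 1 against 23 and 22. Fusions from Esrrb exon 4 keep 60% of the coding sequence. In Cecr2, a bromodomain protein, exon 2 held 0 and 0 against 30 and 21 while exon 8 held 8 and 7 against 1 and 0. Tfcp2l1 went the other way along the gene, with exon 2 at 18 and 10 against 20 and 16 and exon 3 at 2 and 0 against 42 and 29. Among the genes that passed the exon-use test without being called higher as genes were Nol4l, Zfp462 and Zmym1. Of these, Zfp462 and Zmym1 do hold a closed leader. Over all 29 genes, with and without a closed leader, the least favoured exon lay upstream of the most favoured one in 22. These include the 16 genes whose least favoured exon was a closed leader, which precedes the start codon by definition. Genes without a closed leader went both ways. The least favoured exon lay upstream in Esrrb, Cecr2, Gon4l, Jdp2, Mllt6 and Nol4l. In Tfcp2l1, Atf1, Cdyl, Smarcad1, Zfp423 and Zfp607b it lay downstream.

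The 2 sorted replicates ranked the called genes alike. Across the 195 genes their log2 shares correlated with Pearson's r of 0.91 and Spearman's rho of 0.91, a value across genes, which are not independent replicates and here share positions. Replicate 2 over replicate 1, as a log2 ratio of shares at the 134 called genes with at least 20 sorted insertions, had a median of 0.10 in the 33 KRAB genes, -0.05 in the 24 other C2H2 genes and -0.28 in the remaining 77. Rest (137 and 36 sorted insertions), Gse1 (74 and 18) and Msantd3 (58 and 14) were lower in replicate 2, and Cbx1 (52 and 60) was higher. The largest ratios of all were at genes with few insertions, Gm14410 (0 and 6), Zfp60 (1 and 6), Cir1 (5 and 0), Ubap2 (10 and 1) and Zfp941 (10 and 1), and each of these lost its call with TMMwsp scaling.

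**Figure D5:**
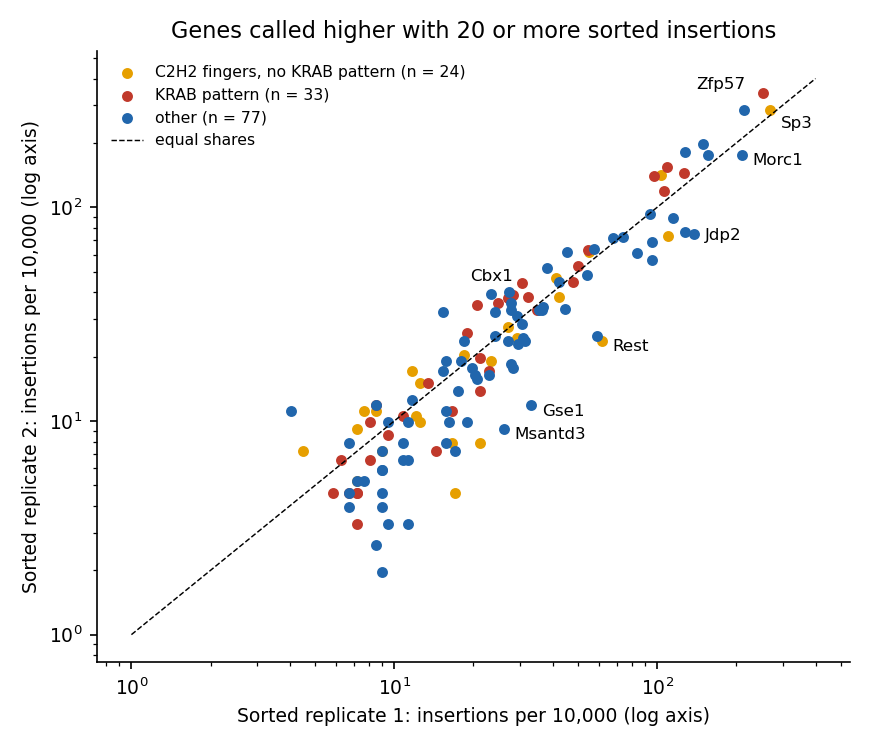
Insertions per 10000 in sorted replicate 1 (x axis) and replicate 2 (y axis), both on log axes, for the 134 called genes with at least 20 sorted insertions, coloured by protein class. Points lie along the dashed line of equal shares, with Jdp2, Rest, Gse1 and Msantd3 below it.

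Several called genes were nearly free of insertions in unsorted cells. The gene 2610044O15Rik8, a KRAB gene, had 7 and 5 sorted insertions and none in the unsorted libraries, so its share was at least 37.5-fold higher against a floor of 3 insertions over both unsorted libraries. Gm11084, A430033K04Rik (13 and 7 against 0 and 3), Zfp952 (9 and 3 against 1 and 1) and Zfp873 (7 and 3 against 2 and 0) followed. Without the shared positions 2610044O15Rik8 and Zfp873 fell under the minimum of 10 insertions and were not tested.

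Genes with fewer insertions in sorted cells were far less certain. With totals as library size 324 genes (4.21%) were called lower, but with TMMwsp scaling 9 (0.117%), all of them among the 324. The replicate block gave 190 (2.47%) and leaving out the shared positions 64 (0.837%). Of the genes tested 2298 held no sorted insertion at all. The 5 genes with the smallest p under TMMwsp were Rufy4 (0 and 0 sorted, 75 and 70 unsorted), Serbp1 (0 and 0 against 75 and 103), Itga6 (2 and 1 against 115 and 137), Fbxo36 (2 and 1 against 116 and 113) and Epha2 (2 and 0 against 111 and 102). Both sorted libraries were near 0 at each of them.

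The activator screen used the same TetR cassette with another reporter and the opposite sort. Its own sorted libraries had 124 of 8000 genes called higher (1.55%) and 2 lower (0.025%). A fit over 8 libraries tested the difference between the 2 screens' sorted-to-unsorted differences, with no library shared between them. It called 104 of 10767 genes (0.966%) as larger in the repressor screen, and all 104 were among the 195. A further 91 (0.845%) were smaller, none of them among the 195. The fit holds the same repressor libraries that called the 195, so this overlap is a description and not independent support. For the other 91 of the 195 the difference between screens did not pass the threshold. Sp3 had 4 and 1 insertions in sorted and 62 and 67 in unsorted activator cells, and its log2 difference between screens was 6.32 ± 0.61 (SE). The 5 genes called higher in both screens were Maml1, Gon4l, Zmiz1, Bcl9l and Tada3. Maml1, a Notch coactivator, had 5 and 11 sorted insertions against 1 and 1 in the activator screen, and its difference between screens was -1.53 ± 1.08. Gon4l, a nuclear protein, had 45 and 41 against 28 and 33, a difference of -0.76 ± 0.41.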

How the data were processed

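Insertion sites had been mapped by inverse PCR and sequencing of genomic DNA. The deposited insertion lists hold 1 site per row, with its position in bp, strand, assigned exon number and distance to that exon. The authors trimmed reads with Trim Galore 0.6.0, aligned them to mm10 with Bowtie2, removed duplicates and low-quality alignments with SAMtools 1.9 and assigned each site to a protein-coding transcript of GENCODE vM25, taking the closest exon downstream and passing over first exons. In the unsorted lists 50.0% of rows repeat another, so unique positions were counted. The deposited table also gives count columns of sorted and background insertions, already summed over replicates. The sorted sums were used as a check, and equalled the counts made here in 20400 of 20409 genes. Its columns of odds ratios and adjusted p-values were not used. No column belonged to another series.

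Unique positions (chromosome, start, strand) were counted for each gene in each library where the exon lay no more than 200 kb away. Sorted and unsorted libraries were compared with edgeR 4.0.16 in R 4.3.3 (quasi-likelihood test, two-sided, library size equal to the total count, at least 10 insertions over the 4 libraries, Benjamini-Hochberg adjusted p under 0.05). SE is the log2 difference divided by the root of the F statistic. Exon use was tested with diffSpliceDGE and Simes' method on exons of at least 10 insertions. The scripts were tested on simulated data. The study calls its 2 replicates biological, yet the sorted pair shares positions, so p-values may measure less than biological spread. Named genes were the 20 called higher with the largest sorted share and no reversed call, those the study singles out, up to 4 passing members of each list and its most abundant other member, and the 5 extremes each of replicate difference, falls under TMMwsp, exon use and low unsorted counts. The genes, lists and tests were chosen with earlier results of these data known. Gene positions, exons and proteins are from GENCODE vM21 on GRCm38, in which 33163 of 33306 assigned exons matched. Protein patterns were C-x(2,4)-C-x(12)-H-x(3,5)-H for a C2H2 finger and a KRAB A-box consensus. A few named genes are not reported here. Alternatives are TMM and TMMwsp scaling, other filters, the replicate block, DESeq2 1.42.0, Fisher's exact test as in the study, other ways of counting positions and leaving out each library.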

Additional observations from a re-analysis of the deposited data

Results flagged for a closer look

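The sorted-to-unsorted difference was tested against that of the activator screen in 1 fit, and 104 genes had a larger difference in the repressor screen. The 5 with the smallest p had log2 differences between screens of 6.32 for Sp3, 5.94 for Rcor2, 5.33 for Sp1, 5.35 for Morc1 and 6.22 for Ipo7, each called by edgeR. In the activator screen these genes had 1 to 6 insertions in each sorted library and 37 to 75 in each unsorted library. Groups of 2 libraries are too small for a search for outlying samples.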

How the results depend on the processing

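The count of 195 genes called higher stayed within 1.5 times of that value under every alternative but 1, between 138 and 212, and fell to 39 with no filter on low counts, where 16435 genes were tested. DESeq2 called 212, Fisher's exact test on summed libraries by the study's thresholds 180, and leaving out a library gave 138 to 177. With the replicate block 173 remained, all of them among the 195. Replicate numbers were not used to pair the samples in the main fit. The differences between replicates 1 and 2 in sorted and unsorted cells correlated with r = 0.067 across 328 genes. This cannot tell whether a sorted and an unsorted library came from the same transduction. The paper took its background from the selected cells and sorted the rest, so the libraries may be paired. Reversed calls ran from 82 to 120 and calls against the activator screen from 88 to 116.

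Calls of fewer insertions, 324 at first, depended on the settings. They came to 89 with TMM, 9 with TMMwsp, 0 with no filter, 654 with filterByExpr, 190 with the replicate block, 45 with DESeq2, 27 at an adjusted p under 0.001 and a log2 change of at least 1, 64 without shared positions, 66 with positions within 10 bp merged, 15 with rows as listed, 61 within 50 kb, and 22 to 161 when a library was left out. The cause was not tested. Exon-use calls, 29 at first, were 10 to 27 when a library was left out, lowest without sorted replicate 1, and 32 with the replicate block. Among named genes 1096 of 1234 values kept direction and side of the threshold, and 2 changed sign, neither of them called: Morc2a, from -0.11 without sorted replicate 1 to 0.65 without sorted replicate 2, and Tle4 to 0.35 within 50 kb. Without sorted replicate 1, Arid4b, Gse1, Tfcp2l1, Trim8, Ubap2 and Zfp941 were among the named genes no longer called higher. The largest loss came with no filter on low counts, where 49 named genes lost their call and 26 kept direction and side of the threshold. Sorted depth limits low-count genes.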
